A study of Arabidopsis thaliana with 12 samples.

Results

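The 10 genes of wax synthesis described here were followed across the 4 groups of a shoot RNA-seq study, out of 32833 loci in its table. They are 6 genes of 3-ketoacyl-CoA synthases (KCS1, KCS2, KCS5, KCS6, KCS10 and KCS20) and 4 ECERIFERUM genes (CER1, CER2, CER3 and CER4). They were chosen by function, as genes of wax and of the KCS family, and selected on a measured value, the smaller fall of KCS1 in the cdk8-1 mutant without sulfate. The response of the 10 genes to sulfate and its difference between genotypes are therefore given as descriptions with no p. KCS1 was tested in no comparison, and the other genes only between genotypes with sulfate. Of the 10 genes, 8 passed the minimum mean of 1 TPM (transcripts per 1000000) over the 12 libraries. KCS2 and CER4 did not.

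The libraries came from shoots of plate-grown Arabidopsis thaliana seedlings aged 10 days, cut off with a blade and frozen. The groups were cdk8-1 with 0 mM magnesium sulfate (magnesium chloride in its place), cdk8-1 with 1.5 mM magnesium sulfate, Col-0 with 0 mM and Col-0 with 1.5 mM, with 3 libraries each. Col-0 is the laboratory wild type, and cdk8-1 is a single mutant allele of CDK8, which encodes the kinase of the Mediator complex of transcription. "Without sulfate" and "with sulfate" below mean these media, which also differ in chloride. CDK8 itself (AT5G63610) had 5.19, 5.20 and 6.09 TPM in cdk8-1 without sulfate, against 33.3, 33.6 and 32.7 TPM in Col-0 without sulfate. With sulfate it had 2.96, 4.01 and 4.99 TPM in cdk8-1, against 21.0, 23.1 and 24.4 TPM in Col-0. The groups did not overlap, and the change of CDK8 in cdk8-1 was -2.40 ± 0.13 without sulfate (log2, SE; limma with Benjamini-Hochberg adjustment, adjusted p = 5.73e-08) and -2.27 ± 0.13 with sulfate (adjusted p = 1.53e-06). The libraries held 17441215 to 25175871 reads in genes, so 1 read in 1000 bases of exon stood for 0.0710 to 0.0962 TPM. Summed TPM of 3 seed storage markers was 138 in cdk8-1 with sulfate replicate 1, against 0 to 2.71 in the other 11 libraries, and KCS1, CER3 and the count of cuticle genes called with sulfate are also given without that library.

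The aerial surface of a plant is sealed by a cuticle, in which waxes lie on and within a polyester, cutin. Epidermal cells make the wax from very-long-chain fatty acids. An elongase complex at the endoplasmic reticulum extends the acyl chain, and its condensing enzyme, the 3-ketoacyl-CoA synthase, sets which chains are made. The elongated chains are then turned into alkanes, for which CER1 and CER3 act together, or into primary alcohols by the reductase CER4.

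Promoters of 2 of the 10 genes are shown as the 250 bases before the annotated gene start in RefSeq's TAIR10.1 assembly, 5′ to 3′ on the strand of the gene. The build of the deposited table is not given in the sources used here; the exonic lengths of this annotation turned 99.4% of the table's values above 0 into whole reads. KCS1 is shown because its response to sulfate was the value on which the genes were selected (chr1:59216-59465, minus strand), and KCS10 because it alone held an L1 box, in capitals (chr2:11173279-11173528, minus strand). The L1 box is a short motif bound by homeodomain factors of the epidermis.
KCS1: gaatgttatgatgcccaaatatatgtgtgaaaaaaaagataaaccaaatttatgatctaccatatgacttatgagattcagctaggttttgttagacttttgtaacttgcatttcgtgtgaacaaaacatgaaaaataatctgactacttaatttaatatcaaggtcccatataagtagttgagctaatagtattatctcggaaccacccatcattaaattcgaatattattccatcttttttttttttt
KCS10: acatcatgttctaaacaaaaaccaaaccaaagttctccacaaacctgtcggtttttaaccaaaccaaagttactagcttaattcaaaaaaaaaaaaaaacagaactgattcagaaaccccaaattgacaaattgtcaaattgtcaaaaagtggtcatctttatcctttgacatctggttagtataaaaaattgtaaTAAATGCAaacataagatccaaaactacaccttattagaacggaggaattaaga
The L1 box was searched as TAAATGCA or TAAATGTA on both strands. It lay 54 bases before the start of KCS10, was found in 1 of the 10 promoters, and was found in 4.33% of 32546 promoters of the same length. GAGAC, a core of sulfur response elements, was in 0 of the 10 promoters and in 26.1% of all. The G-box CACGTG was in 0 of the 10 and in 5.90% of all. A match describes the letters of these windows only.

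All 5 condensing enzyme genes that passed the minimum were lower in Col-0 without sulfate than in Col-0 with sulfate, and in each the mean of cdk8-1 without sulfate lay above that of Col-0 without sulfate. KCS1 (AT1G01120), a condensing enzyme of wax synthesis, had 35.0, 32.4 and 26.9 TPM in cdk8-1 without sulfate, against 49.9, 48.1 and 55.5 TPM in cdk8-1 with sulfate. It had 11.7, 12.5 and 11.5 TPM in Col-0 without sulfate, against 53.1, 59.0 and 71.2 TPM in Col-0 with sulfate. Every library without sulfate thus lay below every library with sulfate in both genotypes, and the cdk8-1 libraries without sulfate formed a separate middle level. KCS1 kept 61.5% of its mean TPM in cdk8-1 and 19.5% in Col-0. In whole shoots, fewer cells of a type and less RNA per cell cannot be told apart. The median gene was 0.45 higher without sulfate in cdk8-1 and 0.46 higher in Col-0 (log2 of deposited values), so sulfate responses are given here relative to that median gene. On that scale, log2(TPM + 1), KCS1 was lower by 1.14 in cdk8-1 and by 2.71 in Col-0, a difference between the responses of 1.57 ± 0.16 (SE). With each library left out in turn the difference was 1.45 to 1.67, and without cdk8-1 with sulfate replicate 1 it was 1.55. Of 19127 genes tested, 344 had a higher value of this difference.

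The libraries without sulfate lay below those with sulfate, with no overlap, for 7 of the 8 genes in cdk8-1, KCS20 being the exception, and for all 8 in Col-0. Over all tested genes, 25.3% in cdk8-1 and 29% in Col-0 were lower without overlap, and 57.3% in cdk8-1 and 56.5% in Col-0 were higher without overlap. The choice of the genes used these comparisons, and nothing is read from those counts.

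**Figure D1:**
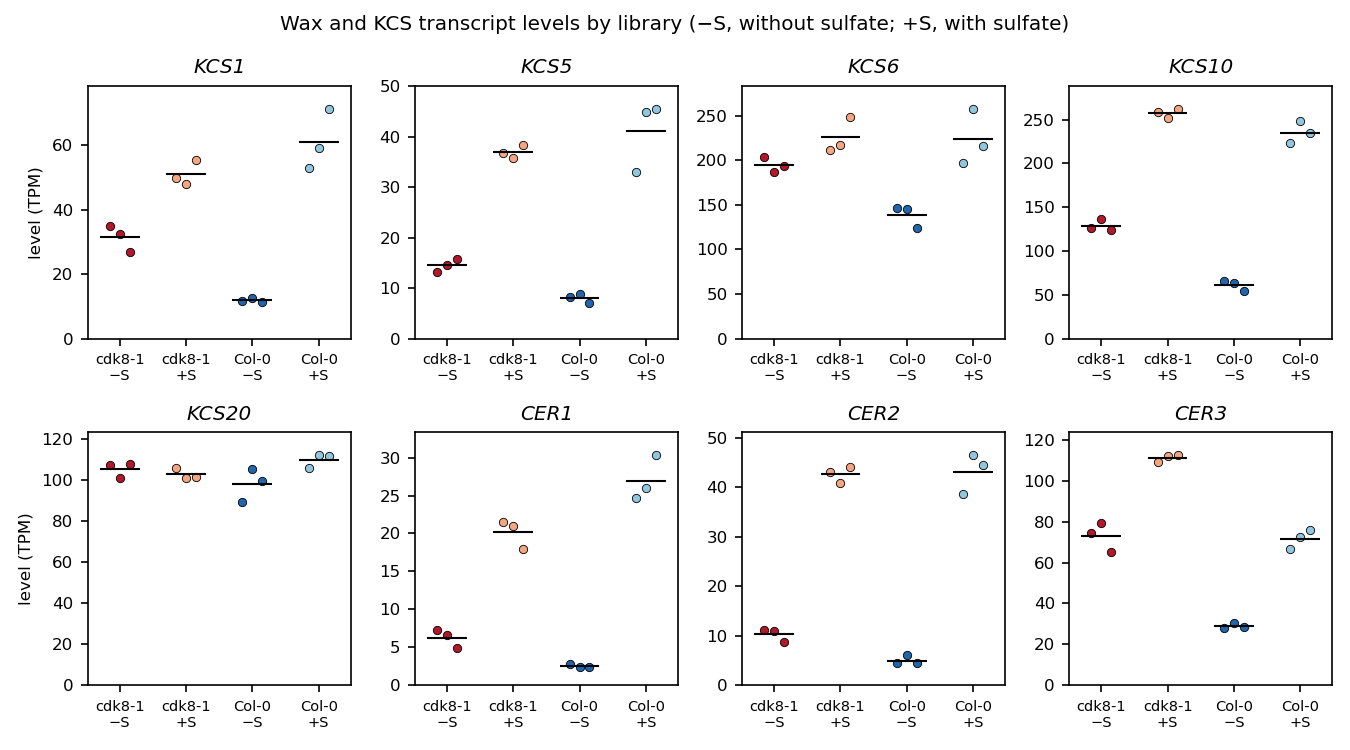
Levels (TPM, vertical axes from 0) of the 8 wax and KCS genes above the minimum, by group; points are libraries and short lines are means of 3. In KCS1 the cdk8-1 libraries without sulfate, at 26.9 to 35.0 TPM, lie between those of Col-0 without sulfate, at 11.5 to 12.5 TPM, and all libraries with sulfate, from 48.1 TPM upward.

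KCS5 (AT1G25450, also CER60), a close relative of KCS6, had 13.3, 14.6 and 15.7 TPM in cdk8-1 without sulfate, against 36.7, 35.7 and 38.3 TPM in cdk8-1 with sulfate. In Col-0 it had 8.31, 8.76 and 7.06 TPM without sulfate, against 33.0, 44.8 and 45.5 TPM with sulfate. The 2 genotypes did not overlap without sulfate and overlapped with it. The response relative to the median gene was -1.74 in cdk8-1 and -2.67 in Col-0, which differ by 0.92 ± 0.17 (SE).

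KCS6 (AT1G68530, also CER6 or CUT1), the main condensing enzyme of stem wax, had 204, 187 and 193 TPM in cdk8-1 without sulfate, against 211, 218 and 248 TPM in cdk8-1 with sulfate. In Col-0 it had 147, 145 and 124 TPM without sulfate, against 197, 257 and 216 TPM with sulfate. KCS6 had the highest level of the 10 genes in both groups without sulfate and kept 86.3% of its mean TPM in cdk8-1 and 62.0% in Col-0. Its response relative to the median gene was -0.66 in cdk8-1 and -1.14 in Col-0, and the difference of 0.47 ± 0.14 (SE) was the smallest of the 8 genes after that of KCS20.

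KCS10 (AT2G26250, also FIDDLEHEAD), an epidermal condensing enzyme whose loss makes organs fuse, had 126, 136 and 124 TPM in cdk8-1 without sulfate, against 258, 252 and 262 TPM in cdk8-1 with sulfate. In Col-0 it had 65.7, 63.2 and 54.7 TPM without sulfate, against 223, 248 and 234 TPM with sulfate. Its 4 groups were all apart, highest in cdk8-1 with sulfate, then Col-0 with sulfate, cdk8-1 without sulfate and Col-0 without sulfate. The response was -1.44 in cdk8-1 and -2.39 in Col-0 relative to the median gene, a difference of 0.94 ± 0.10 (SE). The L1 box printed above lies in the promoter of this gene.

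KCS20 (AT5G43760), a condensing enzyme used for both wax and root suberin, moved least. It had 107, 101 and 108 TPM in cdk8-1 without sulfate, against 106, 101 and 102 TPM in cdk8-1 with sulfate, and these overlap. In Col-0 it had 89.3, 105 and 99.5 TPM without sulfate, against 106, 112 and 112 TPM with sulfate. Its direction in cdk8-1 depends on the scale: the change was 0.03 ± 0.06 (SE, log2) as deposited and -0.41 relative to the median gene, against -0.17 ± 0.06 and -0.63 in Col-0. KCS20 was the only condensing enzyme gene of the 5 whose genotypes overlapped without sulfate.

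KCS2 (AT1G04220, also DAISY), which shares the roles of KCS20, had low levels and went the other way. It had 1.84, 1.20 and 1.76 TPM in cdk8-1 without sulfate, against 0.201, 0.0462 and 0.233 TPM in cdk8-1 with sulfate, and 1.82, 1.53 and 1.08 TPM in Col-0 without sulfate, against 0.510, 0.627 and 0.161 TPM in Col-0 with sulfate. The libraries without sulfate lay above those with sulfate in both genotypes, and the genotypes overlapped on both media. The libraries without sulfate held 31 to 42 reads of KCS2, and those with sulfate 1 to 15 reads. Exons of a gene on the other strand cover 63.6% of the exons of KCS2, and how the authors' counting treated such reads is not given in the sources used here. The 21 genes of the KCS family summed to 675 to 699 TPM in cdk8-1 without sulfate and 1089 to 1175 TPM with sulfate, and to 441 to 479.8 TPM in Col-0 without sulfate and 1034 to 1209 TPM with sulfate.

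CER2 (AT4G24510), an acyltransferase-like protein with which the elongase makes its longest chains, had 11.1, 10.9 and 8.76 TPM in cdk8-1 without sulfate, against 43.1, 40.9 and 44.0 TPM in cdk8-1 with sulfate. In Col-0 it had 4.47, 6.00 and 4.41 TPM without sulfate, against 38.6, 46.4 and 44.5 TPM with sulfate. Libraries without sulfate lay far below those with sulfate, and those of cdk8-1 lay above those of Col-0 without overlap. CER2 kept 24.0% of its mean TPM in cdk8-1 and 11.5% in Col-0, and its responses of -2.41 and -3.35 relative to the median gene differ by 0.93 ± 0.17 (SE). Exons on the other strand cover 25.3% of its exons.

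CER1 (AT1G02205) and CER3 (AT5G57800) encode the proteins that form alkanes, the chief class of leaf wax. CER1 had 7.28, 6.61 and 4.91 TPM in cdk8-1 without sulfate, against 21.5, 21.0 and 17.9 TPM in cdk8-1 with sulfate, and 2.79, 2.38 and 2.33 TPM in Col-0 without sulfate, against 24.6, 26.0 and 30.3 TPM in Col-0 with sulfate. CER1 kept 31.1% of its mean TPM in cdk8-1 and 9.27% in Col-0, the lowest share of the 8 genes in Col-0. The responses relative to the median gene were -2.00 in cdk8-1 and -3.45 in Col-0, a difference of 1.45 ± 0.19 (SE). With a pseudocount of 0.1 TPM in place of 1 the difference was 1.70 for CER1 and 1.63 for KCS1, so the order of these genes depends on the pseudocount. CER1 changed places between the media: cdk8-1 was above Col-0 without sulfate and below it with sulfate, with no overlap on either medium.

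CER3 had 74.4, 79.4 and 65.3 TPM in cdk8-1 without sulfate, against 109, 112 and 113 TPM in cdk8-1 with sulfate. In Col-0 it had 27.8, 30.6 and 28.5 TPM without sulfate, against 66.7, 72.7 and 76.0 TPM with sulfate. The cdk8-1 libraries were above the Col-0 libraries on both media, and those of cdk8-1 without sulfate spanned the range of Col-0 with sulfate. The responses relative to the median gene were -1.05 in cdk8-1 and -1.74 in Col-0, a difference of 0.67 ± 0.11 (SE).

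CER4 (AT4G33790), the reductase that makes primary alcohols, had 0 to 0.246 TPM in cdk8-1 without sulfate, 0 to 0.193 TPM in cdk8-1 with sulfate, 0 TPM in all 3 libraries of Col-0 without sulfate and 0.0422 to 0.328 TPM in Col-0 with sulfate. These values stand for 0 to 8 reads a library, and a difference was not detectable at this depth.

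**Figure D2:**
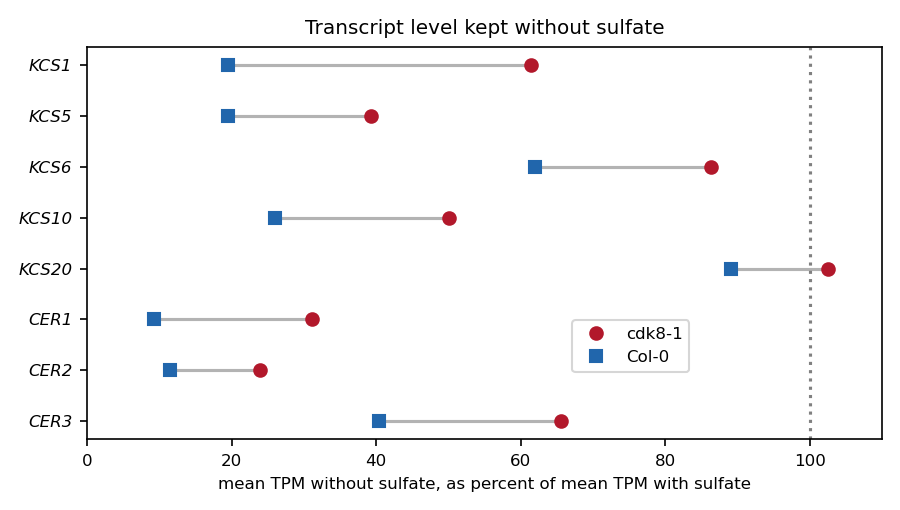
Mean TPM without sulfate as a percent of mean TPM with sulfate (horizontal axis) for 8 wax and KCS genes, with circles for cdk8-1 and squares for Col-0; the dotted line marks 100%. The circle lies to the right of the square for each of the 8 genes, from 24.0% (CER2) to 102% (KCS20) in cdk8-1 and from 9.27% (CER1) to 89.1% (KCS20) in Col-0.

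Without sulfate, the median of the 8 genes was 0.90 higher in cdk8-1 than in Col-0 relative to the median gene (log2). Over all tested genes, 41.3% passed the threshold between the genotypes without sulfate, 35% were higher in cdk8-1 with no overlap and 22.2% lower with no overlap. The groups did not overlap for 7 of the 8 genes, KCS20 being the exception; since this comparison entered the choice of the genes, nothing is read from that count. On log2(TPM + 1), without the shift to the median gene, KCS1 was at 1.32 ± 0.11, CER3 at 1.302 ± 0.075, KCS10 at 1.07 ± 0.07 and CER1 at 1.04 ± 0.13 (SE). With a pseudocount of 0.1 TPM CER1 was at 1.28 and KCS10 at 1.08, so that CER1 was the higher. CER2 was at 0.92 ± 0.12, KCS5 at 0.78 ± 0.12, KCS6 at 0.49 ± 0.10 and KCS20 at 0.11 ± 0.06.

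With sulfate, the one comparison in which these genes were tested, CER3 was the only gene of 7 that passed. It averaged 111 ± 1.76 TPM in cdk8-1 and 71.8 ± 4.72 TPM in Col-0 (SD, n = 3 each), 0.63 ± 0.08 higher on the log2 scale (SE; limma, Benjamini-Hochberg adjusted p = 0.00033). All 3 cdk8-1 libraries lay above all 3 Col-0 libraries. The call held in all 21 alternatives, with adjusted p between 0.0001 and 0.00649, and the difference was 0.64 without cdk8-1 with sulfate replicate 1. The background in this comparison was 13.7% of tested genes called (8.85% higher, 4.84% lower), and 1 of 7 is near it. The groups did not overlap for KCS10 and CER3, higher in cdk8-1, and for KCS20 and CER1, lower in cdk8-1, beside 21.1% and 9.31% of all tested genes.

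CER1 averaged 20.1 ± 1.94 TPM in cdk8-1 with sulfate and 27.0 ± 2.96 TPM in Col-0 with sulfate (SD, n = 3 each). The change of -0.40 ± 0.13 (log2, SE) did not pass (limma, adjusted p = 0.0633), though the groups did not overlap. It passed after median-of-ratios scaling (limma, adjusted p = 0.0334), and its adjusted p ran from 0.0137 to 0.191 over 21 alternatives. KCS10 was at 0.13 ± 0.07 (adjusted p = 0.241), KCS20 at -0.10 ± 0.06 (adjusted p = 0.343) and KCS5 at -0.14 ± 0.12 (adjusted p = 0.484) in limma. KCS6, at 0.02 ± 0.10, and CER2, at -0.01 ± 0.12, had adjusted p of 0.928 and 0.965 in limma, and their sign turned in other settings. KCS1, for which no test was made, was at -0.24 ± 0.11 with overlapping groups.

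**Figure D3:**
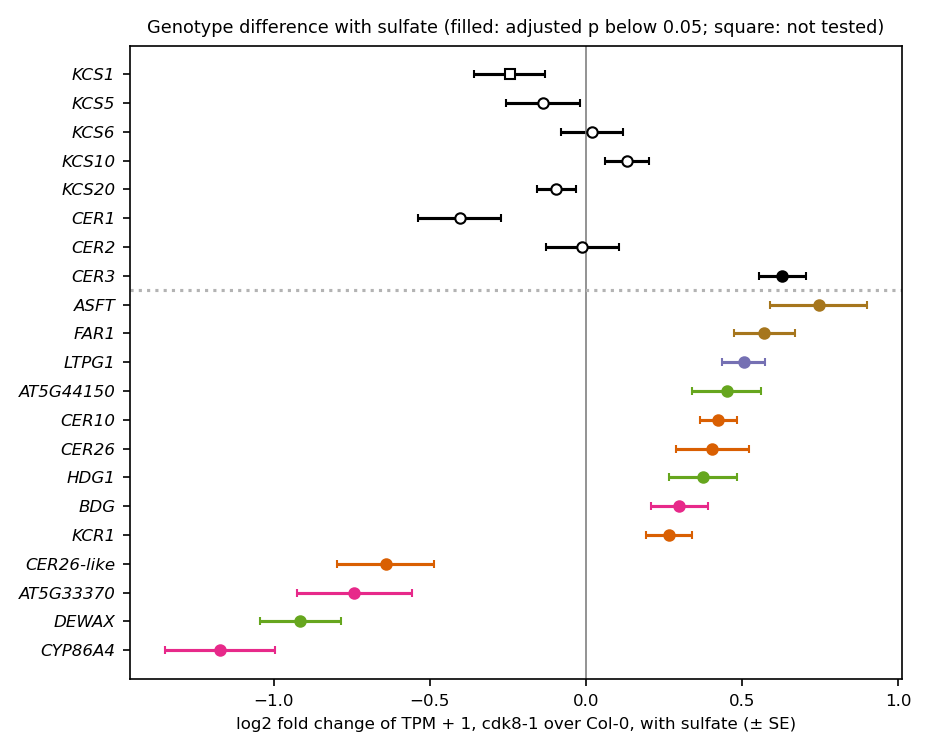
Log2 fold change of TPM + 1 between genotypes with sulfate, cdk8-1 over Col-0, with its SE, for the 8 wax and KCS genes (above the dotted line) and the 13 other cuticle genes that passed (below it). Colours below the line stand for the lists, filled circles passed, open circles did not, and the square is KCS1, not tested; CER3 at 0.63 is the one filled point above the line.

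By level (TPM, which is per length), KCS10 and KCS6 led in both genotypes with sulfate, at 257 and 226 TPM in cdk8-1 and at 235 and 224 TPM in Col-0, where their libraries overlapped. Without sulfate KCS6 led in both, followed by KCS10 and KCS20 in cdk8-1 and by KCS20 and KCS10 in Col-0. CER3 stood above KCS20 in cdk8-1 with sulfate and below it in the other 3 groups. In Col-0 with sulfate CER3 and KCS1 overlapped, as did CER2 and KCS5, and in the other groups all 8 genes were apart from their neighbours in the order.

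Levels of KCS1 over the 12 libraries ran closest to those of KCS10 among the 10 genes (Pearson r of log2(TPM + 1) = 0.97), then of CER1 (0.96), KCS5 (0.95), CER2 (0.95), KCS6 (0.93), CER3 (0.89) and KCS20 (0.62). These r are descriptions, since the 12 points share 4 group means. Among all other tested genes the 5 most like KCS1 were PXY (r = 0.996), AAP2 (0.990), ZW9 (0.990), XCP2 (0.989) and GAD2 (0.989). PXY, a receptor kinase of the vascular cambium, averaged 11.4 ± 0.83 TPM in cdk8-1 without sulfate and 14.8 ± 0.67 TPM with sulfate, and 6.87 ± 0.34 TPM in Col-0 without sulfate and 16.3 ± 1.09 TPM with sulfate (SD, n = 3 each). Of the 19126 genes set against KCS1, 98 had a higher r than KCS10.

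General markers of the epidermis, where these genes act, moved with them, and guard cell markers did so only in part. The 4 general markers ATML1, PDF2, PDF1 and ACR4 summed to 98.6 to 108 TPM in cdk8-1 without sulfate and 467 to 538 TPM with sulfate, and to 31.7 to 34.1 TPM in Col-0 without sulfate and 441 to 477 TPM with sulfate. All 4 were called lower without sulfate in both genotypes, higher in cdk8-1 than in Col-0 without sulfate, and different between genotypes in their response. Of all tested genes, 24.7% in cdk8-1 and 28.8% in Col-0 were lower without sulfate. Between the genotypes without sulfate 26.3% were higher in cdk8-1, and 27% were called in the interaction. None of the 4 was at 0 in any library. With sulfate, 1 of the 4 (ATML1, 0.27 ± 0.08, limma adjusted p = 0.0332, lost in 8 of 21 alternatives) was higher in cdk8-1. The share over all tested genes was 8.85%. The 3 guard cell markers FAMA, MYB60 and KAT1 summed to 28.6 to 29.5 TPM in cdk8-1 without sulfate and 46.0 to 54.3 TPM with sulfate, and to 27.5 to 31.3 TPM in Col-0 without sulfate and 41.8 to 44.6 TPM with sulfate. Without sulfate their sums overlapped between genotypes, and the interaction was 0.02 for FAMA and 0.03 for MYB60, neither called, and -0.69 ± 0.17 for KAT1 (limma, adjusted p = 0.00994). The trichome markers GL1 and GL2 summed to 2.27 to 4.00 TPM in cdk8-1 without sulfate and 9.06 to 9.70 TPM with sulfate, and to 1.22 to 1.69 TPM in Col-0 without sulfate and 8.87 to 13.2 TPM with sulfate. Of these GL2 was called higher in cdk8-1 without sulfate and in the interaction, where its call was lost in 7 of 21 alternatives, and GL1 was called in neither. GL1 averaged 0.18 TPM in cdk8-1 and 0.075 TPM in Col-0 without sulfate, levels at which a difference could hardly be called. The part of epidermal RNA in the values above was not tested. The 4 green leaf markers moved in the same directions, at 9219 to 12043 TPM in cdk8-1 without sulfate and 53446 to 56261 TPM with sulfate, and at 3546 to 3708 TPM in Col-0 without sulfate and 53929 to 56702 TPM with sulfate. These 4 were called lower without sulfate in both genotypes, and higher in cdk8-1 without sulfate and in the interaction.

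The rest of the cuticle pathway was read from 6 lists of 82 other genes, of which 63 passed the minimum. The first list holds the 15 other KCS genes, 10 of them tested. Without sulfate, 7 fell and 2 rose in cdk8-1, and 9 fell and 1 rose in Col-0 (background 81.6% called in cdk8-1 and 84.9% in Col-0, with 24.7% and 28.8% lower and 56.9% and 56.1% higher). Their median change relative to the median gene was -1.41 in cdk8-1 and -1.69 in Col-0, where it is 0 over all genes by construction. KCS4 was the gene that rose in Col-0, at 24.0 ± 3.49 TPM without sulfate and 13.4 ± 1.32 TPM with sulfate (SD, n = 3 each). Its rise in cdk8-1 was 0.30 ± 0.10 on the deposited scale and -0.15 relative to the median gene, and it was no call after median-of-ratios scaling (limma, adjusted p = 0.215).

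KCS17 went opposite ways. It averaged 5.07 ± 0.66 TPM in cdk8-1 without sulfate and 1.80 ± 0.31 TPM with sulfate, and 0.112 ± 0.0839 TPM in Col-0 without sulfate and 1.17 ± 0.0635 TPM with sulfate (SD, n = 3 each). Its change relative to the median gene was 0.67 in cdk8-1 and -1.42 in Col-0 (1.12 ± 0.14 and -0.97 ± 0.14 on the deposited scale), and the responses differed by 2.08 ± 0.20 (log2, SE; limma, adjusted p = 1.55e-05). KCS8 and KCS19 fell less in cdk8-1 than in Col-0. KCS8 averaged 42.7 ± 10.2 TPM in cdk8-1 without sulfate and 114 ± 5.00 TPM with sulfate, against 11.8 ± 1.06 and 147 ± 10.5 TPM in Col-0 on the same media. KCS12 fell to 10.6 ± 0.72 TPM in cdk8-1 without sulfate, against 64.7 ± 10.6 TPM with sulfate, and to 9.74 ± 0.77 TPM in Col-0 without sulfate, against 62.5 ± 20.8 TPM with sulfate. Its responses differed by 0.03 ± 0.26 (limma, adjusted p = 0.938). In the interaction (cdk8-1 response less the Col-0 response), 4 of the 10 were higher (KCS8, KCS17, KCS19 and KCS3, which was chosen after its values were seen and whose call was lost in 8 of 21 alternatives) and 1 (KCS4) was lower, beside 27% of all genes called.

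The other genes of chain elongation and wax synthesis (10 of 14 tested) include the further elongase subunits and the acyl-CoA synthetases. Without sulfate 7 fell and 1 rose in cdk8-1, and 8 fell and 1 rose in Col-0. Over all tested genes 24.7% fell and 56.9% rose in cdk8-1, and 28.8% fell and 56.1% rose in Col-0. After median-of-ratios scaling 9 genes of this list fell and 1 rose in each genotype. All 10 were higher in cdk8-1 than in Col-0 without sulfate (background 26.3%), and 8 were higher in the interaction (background 14.8%). CER10, the enoyl-CoA reductase of the elongase, averaged 89.5 ± 0.97 TPM in cdk8-1 without sulfate and 38.7 ± 1.19 TPM in Col-0 without sulfate, and with sulfate 108 ± 2.16 TPM in cdk8-1 and 80.5 ± 6.37 TPM in Col-0 (SD, n = 3 each). It was thus higher in cdk8-1 on both media, with sulfate by 0.42 ± 0.06 (log2, SE; limma, adjusted p = 0.000881). LACS1, a long-chain acyl-CoA synthetase of wax and cutin, averaged 28.8 ± 1.71 TPM in cdk8-1 without sulfate and 9.14 ± 0.82 TPM in Col-0 without sulfate, and 68.7 ± 1.16 TPM in cdk8-1 and 74.3 ± 6.24 TPM in Col-0 with sulfate. PAS1, a scaffold of the elongase, was the gene that rose without sulfate in both genotypes, and PAS2, the dehydratase, fell in both.

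With sulfate this list had 3 genes higher (CER10, KCR1 and CER26) and 1 lower (CER26-like) in cdk8-1, beside 8.85% and 4.84% of all tested genes. CER26 and CER26-like are relatives of CER2 and went opposite ways, at 0.40 ± 0.12 (limma, adjusted p = 0.0384) and -0.64 ± 0.16 (adjusted p = 0.0181). The calls of CER26 and of KCR1, the ketoacyl reductase of the elongase (0.27 ± 0.07, limma, adjusted p = 0.0346), were lost after median-of-ratios scaling and in 11 and 8 of 21 alternatives in all.

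All 6 export genes were tested, namely the wax and cutin transporters ABCG11, ABCG12, ABCG13 and ABCG32 and the lipid transfer proteins LTPG1 and LTPG2. Without sulfate 5 fell in cdk8-1, with ABCG11 at -0.07 on the deposited scale, and all 6 fell in Col-0. Over all tested genes 24.7% fell in cdk8-1 and 28.8% in Col-0. After median-of-ratios scaling all 6 export genes fell in each genotype. On the deposited scale all 6 were higher in cdk8-1 than in Col-0 without sulfate and in the interaction, beside 26.3% and 14.8% of all tested genes. ABCG12, a wax exporter, averaged 83.8 ± 2.81 TPM in cdk8-1 and 42.3 ± 6.99 TPM in Col-0 without sulfate, and 115 ± 2.15 TPM in cdk8-1 and 112 ± 7.75 TPM in Col-0 with sulfate (SD, n = 3 each). LTPG1 was the export gene that differed with sulfate, by 0.51 ± 0.07 (limma, adjusted p = 0.000696), beside 8.85% of all tested genes higher.

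Of 13 cutin genes tested, 12 fell and 1 (AT4G24140) rose without sulfate in each genotype on the deposited scale. After median-of-ratios scaling 12 fell and 0 rose in each genotype. On the deposited scale 10 were higher in cdk8-1 without sulfate, and 12 were higher in the interaction. Of all tested genes, 24.7% in cdk8-1 and 28.8% in Col-0 were lower without sulfate, 26.3% were higher in cdk8-1 without sulfate, and 14.8% were higher in the interaction. GPAT8, an acyltransferase of cutin synthesis, averaged 10.2 ± 0.78 TPM in cdk8-1 and 2.25 ± 0.31 TPM in Col-0 without sulfate, and 68.0 ± 2.48 TPM in cdk8-1 and 69.6 ± 4.13 TPM in Col-0 with sulfate. The responses of LTL1 differed by 2.89 ± 0.17 (log2, SE; limma, adjusted p = 5.90e-07). With sulfate 1 was higher (BDG, a call lost in 16 of 21 alternatives) and 2 were lower (CYP86A4 and AT5G33370) in cdk8-1. The shares over all tested genes were 8.85% higher and 4.84% lower. After median-of-ratios scaling 0 cutin genes were higher and 3 were lower with sulfate. CYP86A4, a fatty acid hydroxylase, averaged 2.58 ± 0.67 TPM in cdk8-1 with sulfate and 7.03 ± 1.18 TPM in Col-0 with sulfate.

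Of 14 regulators tested, 6 rose and 6 fell in cdk8-1 without sulfate, and 3 rose and 7 fell in Col-0. Over all tested genes 56.9% rose and 24.7% fell in cdk8-1, and 56.1% rose and 28.8% fell in Col-0. After median-of-ratios scaling 1 regulator rose and 8 fell in cdk8-1, and 2 rose and 11 fell in Col-0. With that scaling 7372 of 19127 genes rose and 7135 fell in cdk8-1, and 7903 rose and 7571 fell in Col-0. MYB16, an activator of cuticle genes in the epidermis, averaged 4.51 ± 1.03 TPM in cdk8-1 and 0.992 ± 0.072 TPM in Col-0 without sulfate, and 22.9 ± 0.51 TPM in cdk8-1 and 26.4 ± 0.84 TPM in Col-0 with sulfate (SD, n = 3 each). DEWAX, a repressor of wax genes, averaged 73.4 ± 14.1 TPM in cdk8-1 and 82.0 ± 7.21 TPM in Col-0 without sulfate, and 92.3 ± 2.17 TPM in cdk8-1 and 176 ± 24.2 TPM in Col-0 with sulfate. It was lower in cdk8-1 with sulfate, with a change of -0.91 ± 0.13 (log2, SE; limma, adjusted p = 0.000886), and its call held in all 21 alternatives. MYB96, an activator of wax genes in drought, rose in cdk8-1 without sulfate on the deposited scale (0.45 ± 0.08) and not relative to the median gene.

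The list of fatty alcohol and suberin genes went the other way from the rest. Of its 10 tested genes, 9 rose without sulfate in each genotype, beside 56.9% of all tested genes in cdk8-1 and 56.1% in Col-0. The other, FAR1, a reductase that makes fatty alcohols, fell in both. GPAT5, an acyltransferase of suberin, averaged 7.82 ± 1.44 TPM in cdk8-1 without sulfate and 0.894 ± 0.15 TPM with sulfate, and 6.83 ± 0.77 TPM in Col-0 without sulfate and 0.691 ± 0.15 TPM with sulfate (SD, n = 3 each). Of these 10 genes 0 passed the interaction in limma, beside 27% of all tested genes. In that test 1 of the 10 had an unadjusted p under 0.05, and limma voom on the recovered reads called 0. Their median change relative to the median gene was 1.58 in cdk8-1 and 1.37 in Col-0. Suberin lies mainly in roots, and 5 root markers summed to 1.28 to 22.3 TPM over the 12 libraries, with the highest value in cdk8-1 without sulfate replicate 1; their part in these values was not tested.

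Over the 6 lists, 38 of 63 genes fell and 19 rose in cdk8-1 without sulfate, and 43 fell and 15 rose in Col-0. After median-of-ratios scaling 44 fell and 12 rose in cdk8-1, and 48 fell and 13 rose in Col-0. Over all tested genes that scaling gave 7372 higher and 7135 lower in cdk8-1 and 7903 higher and 7571 lower in Col-0, against 10877 and 4730 in cdk8-1 and 10736 and 5512 in Col-0 on the deposited scale. Between the genotypes without sulfate 43 were higher and 1 (KCS4, a call lost in 6 of 21 alternatives) was lower in cdk8-1, beside 26.3% and 15% of all tested genes. With sulfate 9 were higher and 4 lower. With median-of-ratios scaling the last count became 5 higher and 6 lower, and over all tested genes 1693 higher and 925 lower became 837 higher and 1246 lower. Of the 13 called with sulfate, the count was 8 without cdk8-1 with sulfate replicate 1, 7 without its replicate 3, 8 without Col-0 with sulfate replicate 1 and 7 without its replicate 3. In the interaction 35 were higher and 2 lower, against 14.8% and 12.2% of all tested genes. The median difference of responses was 0.64 over the 63 genes, 0.92 over the 8 wax and KCS genes and -0.00 over all genes tested. Since this difference entered the choice of the 8 genes, nothing is read from their median.

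**Figure D4:**
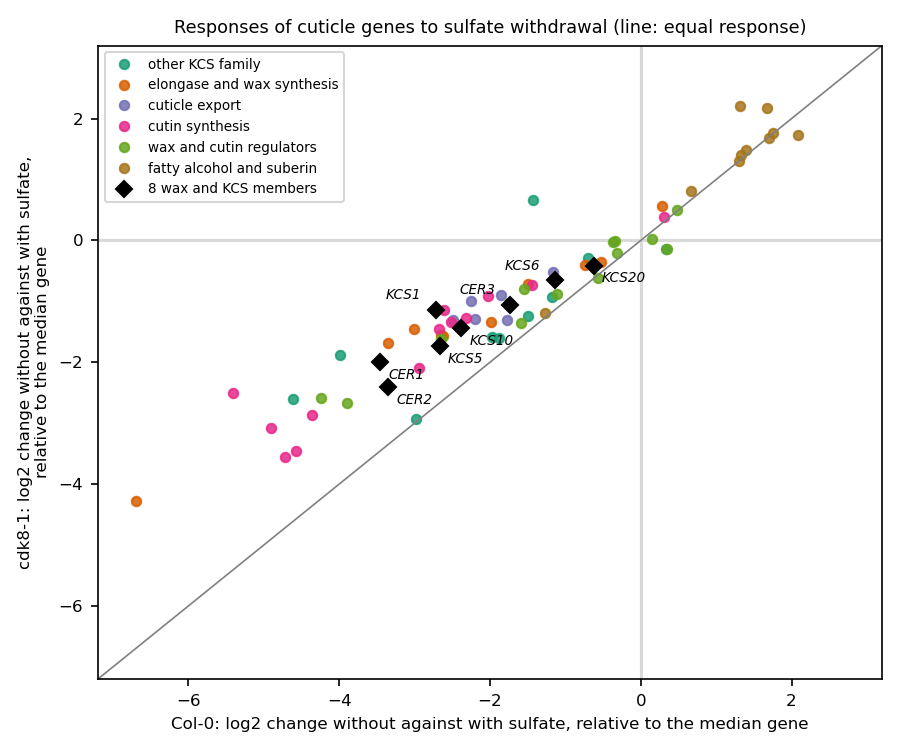
Log2 change without against with sulfate in cdk8-1 (vertical axis) and in Col-0 (horizontal axis), relative to the median gene, for the 8 wax and KCS genes (diamonds) and 63 other cuticle genes (circles, by list); on the diagonal both genotypes respond equally. The 8 diamonds lie above the diagonal, by 0.20 (KCS20) to 1.57 (KCS1) on log2(TPM + 1), and the fatty alcohol and suberin genes lie at the upper right except FAR1, at -1.19 in cdk8-1 and -1.27 in Col-0.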

How the data were processed

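RNA of 12 shoot libraries, 3 in each of 4 groups, was measured by RNA-seq. The authors deposited 1 table of TPM for 32833 loci. The submitters' processing notes list DESeq2 1.46, featureCounts 2.0.8 and STAR 2.7.11b without roles, and the build is not given in the sources used here. Libraries were made with a directional kit, per the labels' protocols. With exonic lengths of RefSeq's TAIR10.1 annotation, 99.4% of the deposited TPM values above 0 came out as whole reads within 0.01 read. These reads gave the depth, which covers counting error only, and served in an alternative.

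The 19127 genes averaging 1 TPM or more entered limma 3.58.1 (R 4.3.3) as log2(TPM + 1), with 1 mean for each of 4 groups and trended empirical Bayes moderation. Tests were two-sided, with Benjamini-Hochberg adjustment over all tested genes of a comparison and a threshold of 0.05. A fold change on log2(TPM + 1) understates the change of low genes. The script was tested on simulated data. The 5 comparisons were withdrawal of sulfate in cdk8-1 and in Col-0, cdk8-1 against Col-0 without and with sulfate, and the interaction. Groups were taken from the sample titles. Nothing in the labels says that replicates were separate cultures, and p measures the spread between these samples. All libraries carry 1 batch label.

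The 10 genes and the lists were chosen with earlier results of these data known, and nothing in them is independent of those results. All 10 were named. So could be, per list and comparison, up to 3 genes called in each direction with the smallest p (where none passed, the 1 with the smallest p), the 5 genes with the highest r to KCS1, and CDK8. Names that only say what a list holds are outside the rule. Of the list genes, 7 are called by their locus. Alternatives were another pseudocount (0.1), a minimum of 5 TPM or none, median-of-ratios and quantile scaling, no variance trend, only the groups compared, a replicate block, limma voom on the recovered reads, and each of the 12 libraries left out.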

Additional observations from a re-analysis of the deposited data

Results flagged for a closer look

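The response to sulfate withdrawal differed between cdk8-1 and Col-0 for 37 of the 63 tested cuticle genes outside the 10 chosen ones. The test was the interaction in limma with adjusted p below 0.05, which called 27% of all tested genes. The 17 genes given here had the smallest p in this comparison, with up to 3 per list and direction. In log2, as the cdk8-1 response less the Col-0 response, the difference was 2.11 for KCS8, 2.08 for KCS17 (4.10 with a pseudocount of 0.1 TPM), 2.00 for KCS19 and -0.49 for KCS4 among the condensing enzymes. In elongation and wax synthesis it was 2.40 for AT1G06360 (4.96 with a pseudocount of 0.1 TPM), 1.66 for LACS1 and 0.76 for CER10. Among the export genes it was 1.17 for ABCG32, 0.94 for ABCG12 and 0.89 for LTPG2. For the cutin genes it was 2.89 for LTL1, 1.81 for GPAT8 and 1.17 for CYP86A8. For the regulators it was 1.65 for MYB16, 1.01 for SPL9, 0.74 for DEWAX and -0.50 for AT5G44150. The calls of KCS4 and AT5G44150 were lost in 4 and 6 of 21 alternatives, and those of the other 15 in 0. The 4 general epidermal markers differed by 0.73 (ACR4) to 2.90 (PDF1), and the 4 green leaf markers by 1.23 (RBCS1A) to 2.80 (CA1). The guard cell markers differed by 0.02 (FAMA), 0.03 (MYB60) and -0.69 (KAT1). What part the RNA of these cell types had in the differences above was not tested.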

How the results depend on the processing

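A tested value of a single gene counted as kept if its direction and side of the threshold held. A value given without a test counted as kept if it moved by less than the spread between replicates. Over the alternatives other than leaving out a library, 1163 values were kept, 57 values given without a test moved by more than that spread, 34 lost the call, 8 gained one and 5 reversed. With a library left out, 1637 were kept, 56 lost the call, 5 gained one and 6 reversed. Leaving out a library of a group outside a comparison left its fold changes as they were. Values given without a test were then kept by construction. In the comparison of genotypes with sulfate, 2618 genes were called, 1183 when only the groups compared were fitted and 2566 by limma voom on the recovered reads. The 13 cuticle list genes called there became 7 to 14 with a library left out: 8 without cdk8-1 with sulfate replicate 1, 7 without its replicate 3, 8 without Col-0 with sulfate replicate 1 and 7 without its replicate 3. KCS6 with sulfate became -0.059 with median-of-ratios scaling, -0.0522 with quantile scaling, -0.051 without cdk8-1 with sulfate replicate 3, -0.0664 without Col-0 with sulfate replicate 1 and -0.002 without its replicate 3. With a library left out KCS6 ran from -0.0664 to 0.1247 and CER2 from -0.0888 to 0.0423. CER2 with sulfate became 0.0185 without cdk8-1 with sulfate replicate 2, 0.0423 without Col-0 with sulfate replicate 2 and 0.0117 without its replicate 3. KCS4 in cdk8-1 without sulfate became -0.1439 with median-of-ratios and -0.1135 with quantile scaling, and MYB96 became -0.004 with median-of-ratios scaling. These scalings shift the median gene toward 0, by their construction. The main fit did not pair libraries by replicate number. Same-numbered libraries of different groups correlated at -0.004 to 0.305 in their deviations from the group means, above 0.1 in 7 of 18 pairs. Differently numbered libraries correlated at -0.24 to 0.125. With the replicate number as a block, the genes called with sulfate became 3220 and the cuticle list genes 14 (57 in cdk8-1 and 58 in Col-0 without against with sulfate, 47 between genotypes without sulfate, 37 in the interaction). A mean below 1 TPM leaves KCS2 and CER4 without a test, and the pseudocount of 1 TPM shrinks changes of CER1 and CER2 without sulfate.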
